A study of Mus musculus with 42 samples.

Results

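Of the 16345 named genes measured while mouse embryonic stem cells (ESCs) were turned into epiblast-like cells (EpiLCs), 150 transcripts that peaked between 18 and 36 h are described here. Each had its highest value in the 10 libraries without doxycycline (Dox) at 18, 24, 30 or 36 h, and a mean value of at least 20 over those 4 hours. Values are normalised read counts, that is gene reads divided by a size factor of the library. The genes were ranked by their mean log2(value + 1) over the 4 hours minus the higher of the values at 0 and 96 h, called the excess below, and the first 150 were taken after Dnmt3l and Bmp4 had been left out. In all, 12201 genes reached the mean of 20, and 3130 of them were highest in this window before the 2 genes were left out. The last members were Acyp2, Pign and Hirip3, each with an excess of 1.17 log2 units, and the first genes left outside were Lrmp, RP23-11C16.12 and Sptbn4, each with 1.16. The 10 libraries without Dox chose the members, so their values are given as a description, and tests were kept to libraries that the choice did not use.

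ESCs kept in 2i/LIF, a medium with a pair of kinase inhibitors and leukaemia inhibitory factor, resemble the naive epiblast of the embryo before implantation, and EpiLCs resemble the epiblast soon after it. Between them cells pass through an intermediate in which naive transcription factors are being lost while the programme of EpiLCs is not yet complete. Transcripts that are high only in passing mark that interval and would be missed by comparing its ends.

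The study sequenced polyA RNA, with 1 library for each condition and time. The with-Dox group is the KH2-ISY1 line, a KH2 ESC line that expresses Flag-tagged ISY1 (a splicing factor) under Dox, given Dox and sampled at 24, 48, 72 and 96 h of EpiLC induction. A separate DGCR8 knockout ESC line was sampled at 0, 6, 24, 48, 72 and 96 h; DGCR8 works with the nuclease DROSHA to release microRNA hairpins. The cESC group holds 4 libraries of KH2-ISY1 EpiLCs replated into 2i/LIF, from 24 h and 48 h EpiLCs that had or had not received Dox, and all were labelled as without Dox after replating. Embryoid bodies (EBs) of KH2-ISY1 cells without Dox were sampled on days 1, 2, 4, 8, 10 and 13, with serum/LIF cells as day 0, and serum/LIF cells with Dox form 1 further library. The group that these are set against is KH2-ISY1 without Dox at 0 (2i/LIF), 6, 12, 18, 24, 30, 36, 48, 72 and 96 h. All KH2-ISY1 groups carry the inducible transgene. No line without the transgene was given Dox, so ISY1 and Dox cannot be told apart, and the knockout and its KH2-ISY1 counterpart differ in ESC line as well as in DGCR8.

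Libraries of the EpiLC table held 5.80 to 38.84 M reads, and those without Dox 6.17 to 13.15 M. Isy1 stood at 3038, 912, 1109 and 708 with Dox at 24, 48, 72 and 96 h, against 423, 396, 558 and 418 without. Dgcr8 stood at 36.8 to 44.5 in the knockout, against 75.2 to 231 in the libraries without Dox, and the labels do not give the deleted part. Without Dox the summed level of 5 naive markers was 24611 at 0 h and 464 at 96 h, while that of 5 EpiLC markers was 260.0 at 0 h and 2855 at 96 h, and all 5 pluripotency markers were present in every library. Naive minus EpiLC markers, as a mean log2 difference, fell at every step of the hour except between 30 h (0.36) and 36 h (1.11). Summed levels of markers of feeder fibroblasts, primitive endoderm, trophoblast, primitive streak and neural cells lay between 5.8 and 384 in all 24 libraries of the table, and the streak marker T was at 0 from 18 to 36 h without Dox.

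Without Dox the median of the members was already high at 12 h, stayed so to 36 h and was low again at 96 h. Their median value without Dox was 22.2 at 0 h, 57.1 at 6 h, 87.4 at 12 h, 107.5 at 18 h, 124.5 at 24 h, 108.2 at 30 h, 107.7 at 36 h, 63.7 at 48 h, 41.2 at 72 h and 21.7 at 96 h. The highest value fell at 18 h for 31 members, at 24 h for 47, at 30 h for 24 and at 36 h for 48. All 4 middle hours lay above both ends in 149 of the 150. The excess had a median of 1.58 log2 units and ran up to 5.04, and 48 members had at least 2 units and 18 at least 3.

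Most members were high early and low late. At 6 h, 91 of the 150 had passed the log2 midpoint of their rise, and 14 of these were below it again at 12 h. Another 47 passed it between 6 and 12 h, and 12 were short of it at both hours. At 48 h 99 members were still above the log2 midpoint of their fall, and at 72 h 43 were. Within the 3 libraries of like depth, of 6.17 to 6.35 M reads, all 150 were higher at 24 h than at 0 h and 140 were higher at 24 h than at 48 h. The choice of members largely fixes both counts, so they do not show whether depth shaped the courses. Among the 4 middle hours themselves the highest value was a median of 1.73 times the lowest, and the lowest of the 4 was at 18 h in 61 members and at 30 h in 53. With 1 library per hour the spread within an hour is unknown, so the exact peak hour of a member carries no error.

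**Figure D1:**
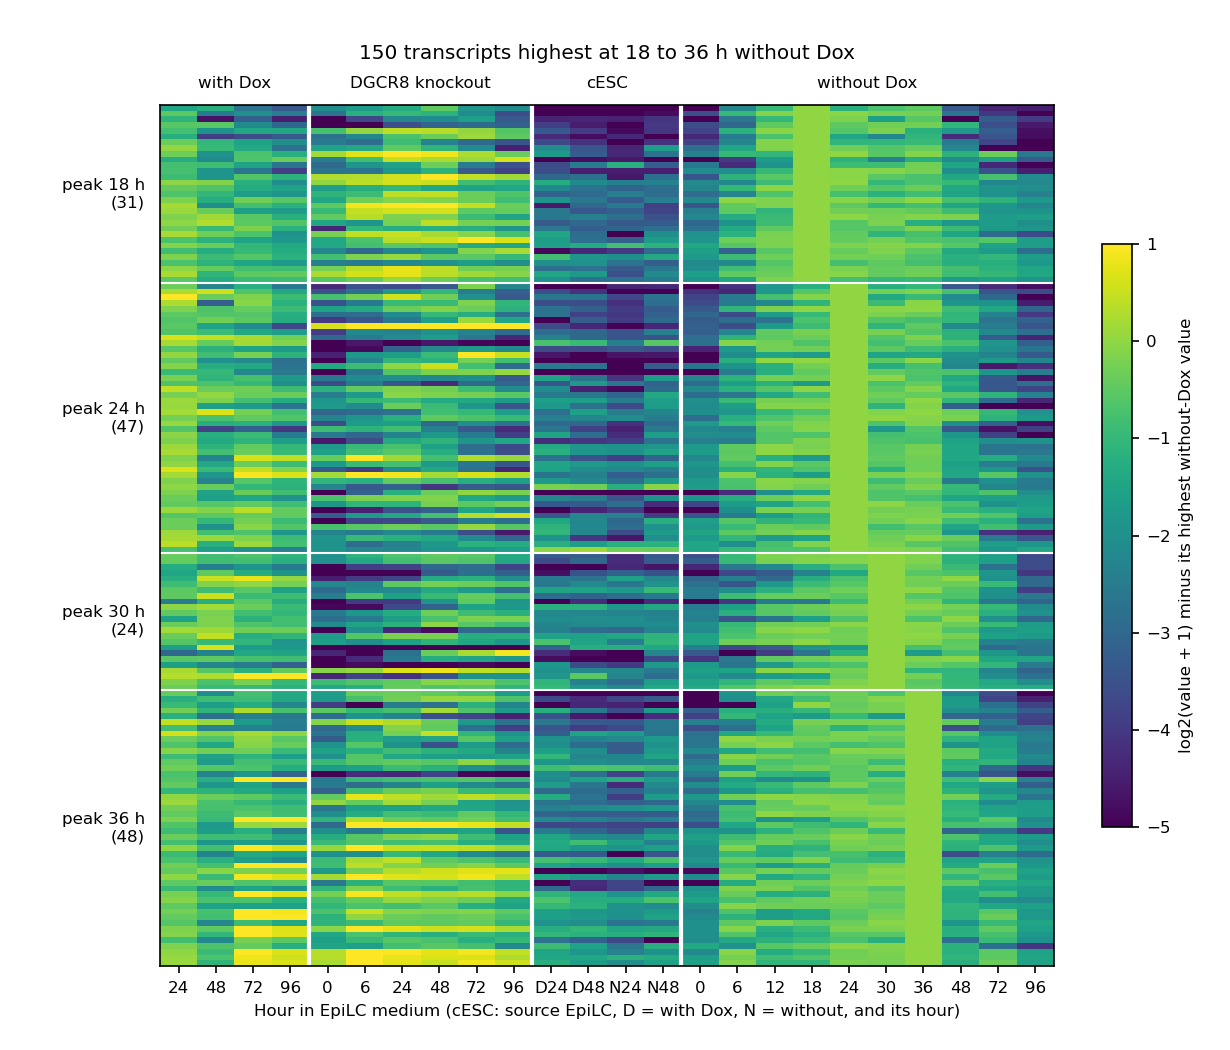
Level of each of the 150 members (rows, grouped by peak hour without Dox and ordered by excess) in each library (columns), as log2(value + 1) minus the member's highest value without Dox; D24, D48, N24 and N48 are cESCs from EpiLCs with or without Dox. The groups hold the 31, 47, 24 and 48 members that peaked at 18, 24, 30 and 36 h. Most of the 150 have high values from 12 to 36 h without Dox and low values in the 4 cESC libraries. At 12 h 12 members had not yet passed the log2 midpoint of their rise and 14 had fallen below it again.

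Levels differed widely between members. The mean over 18 to 36 h ran from 20.2 to 4062, with a median of 111.7, and 16 members averaged at least 1000 while 45 averaged under 50. At 0 h 1 read was worth 0.870 normalised units, so the low ends of the weaker members rest on a few reads. In bulk RNA fewer cells with a transcript and less of it per cell cannot be told apart. For orientation, 68 members with well-known products were sorted by hand into 6 role groups after their values had been seen, and the other 82 include most of the 32 members that carry only predicted-gene, clone or Riken names.

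Transcription and chromatin factors made up 16 members. Dppa2 and Dppa4 are neighbouring genes that encode partner SAP-domain proteins of early embryos and pluripotent cells. Without Dox, Dppa2 stood at 97.4, 586 and 1034 at 0, 6 and 12 h, at 1040.1, 1073, 1161 and 1047 at 18, 24, 30 and 36 h, and at 529, 388 and 90.2 at 48, 72 and 96 h. Dppa4 stood at 250.4, 533 and 835, then 905, 1048, 1224 and 1027, then 920.4, 536 and 314 at the same hours. Both were thus within a narrow range from 12 or 18 h to 36 h, and Dppa4 was still near its middle-hour level at 48 h when Dppa2 was not. Over the 24 libraries log2 values of the pair had a Pearson r of 0.874, as a description over libraries that share lines and times. Each gene has predicted copies among the members whose values follow it almost exactly: Gm9788 and Gm8023 follow Dppa2 (r of 0.995 and 0.992) and Gm14058 and Gm5501 follow Dppa4 (0.991 and 0.963), so reads may have been split or shared between them.

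Nr0b1 encodes DAX1, an orphan nuclear receptor of the naive pluripotency network. Its values without Dox were 497, 692, 1992, 1979, 2156, 1009, 2005, 242, 36.5 and 10.6 from 0 to 96 h in the order of the hours. It was thus well expressed at the start, highest at 12 to 24 h and at 36 h, and at 96 h lower than in any other of the 24 libraries. The retinoic acid receptor gene Rarg had 29.6, 594 and 1168 at 0, 6 and 12 h, 1142, 1316, 1441 and 1463 from 18 to 36 h and 1066, 616 and 540.0 at 48, 72 and 96 h, a course with a steep start and a shallow decline. Tcf15, a basic helix-loop-helix factor linked to the first steps out of the naive state, had a like shape at a lower level, with 16.5 and 107 at 0 and 96 h and 233 to 294 at 18 to 36 h. The corepressor gene Tle4 was at 1019 to 1236 from 18 to 36 h, against 279 and 354 at 0 and 96 h, and L3mbtl2, a subunit of a Polycomb complex, at 579 to 759 against 250.4 and 229. Bnc2, a zinc finger gene with the second largest excess (4.15 log2 units), had 0.9 and 3.0 at the ends and 48.3 to 87.6 in the middle hours. Ascl2, a helix-loop-helix factor of trophoblast, was at 5.2 and 6.8 and 27.9 to 40.2, and Aire, the autoimmune regulator of the thymus, at 44.3 and 7.7 and 146 to 269.

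Genes known from germ cells and placenta included the abundant Tex19.1 and Rhox5. Tex19.1, which encodes a germ-cell and placental protein that restrains transposons, had 498, 2316, 1407, 1321, 2012, 1188, 2859.8, 542, 264 and 106 from 0 to 96 h. Its 6 h and 36 h libraries were the highest and its 18 h and 30 h libraries lay between them and the 0 h level, so the course had more than 1 crest. Rhox5, an X-linked homeobox gene of placenta and testis, had 328 and 426 at 0 and 96 h and 1449 to 1850.0 in the middle hours, with a smooth course between. Prss50, a testis serine protease gene, stood further above its own 0 h value, with 2.6 and 54.5 at the ends and 128 to 156 in the middle.

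The upstream sequences of 5 members are shown as examples that differ in their CpG pairs and in the motifs found. They do not cover the full range of promoters among the members. Each is the 250 bases before the annotated start, from RefSeq on GRCm38.p6, in the direction of the gene, with capitals for a match to 1 of 9 short motifs searched. Enox1 (chr14:77156513-77156762, plus strand) has 33 CpG pairs and 2 GC boxes. Slc5a1 (chr5:33103969-33104218, plus strand) has 6 CpG pairs and an E-box. Aire (chr10:78043611-78043860, minus strand), Nr0b1 (chrX:86191525-86191774, plus strand) and Tex19.1 (chr11:121145893-121146142, plus strand) each have TATAAA, on either strand, whose first base lies 29, 32 and 19 bases before the start, and Aire has also a CCAAT box.
Enox1: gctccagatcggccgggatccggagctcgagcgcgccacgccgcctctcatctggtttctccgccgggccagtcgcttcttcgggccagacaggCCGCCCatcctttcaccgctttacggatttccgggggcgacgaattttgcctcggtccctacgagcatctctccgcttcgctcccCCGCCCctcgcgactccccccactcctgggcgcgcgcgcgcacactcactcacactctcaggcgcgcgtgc
Slc5a1: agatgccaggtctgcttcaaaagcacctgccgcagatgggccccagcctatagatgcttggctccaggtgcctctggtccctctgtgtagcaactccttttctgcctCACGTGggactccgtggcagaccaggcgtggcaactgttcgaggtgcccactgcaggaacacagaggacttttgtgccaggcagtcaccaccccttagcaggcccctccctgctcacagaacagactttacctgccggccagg
Aire: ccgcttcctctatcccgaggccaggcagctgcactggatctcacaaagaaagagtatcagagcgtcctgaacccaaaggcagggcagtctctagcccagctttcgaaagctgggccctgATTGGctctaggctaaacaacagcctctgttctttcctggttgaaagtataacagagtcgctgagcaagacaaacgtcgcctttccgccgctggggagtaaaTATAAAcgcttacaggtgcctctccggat
Nr0b1: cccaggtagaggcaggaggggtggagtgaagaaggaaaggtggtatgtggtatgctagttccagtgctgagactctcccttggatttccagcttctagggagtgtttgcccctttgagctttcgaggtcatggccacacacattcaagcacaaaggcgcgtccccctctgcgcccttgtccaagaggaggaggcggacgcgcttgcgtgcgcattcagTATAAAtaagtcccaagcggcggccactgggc
Tex19.1: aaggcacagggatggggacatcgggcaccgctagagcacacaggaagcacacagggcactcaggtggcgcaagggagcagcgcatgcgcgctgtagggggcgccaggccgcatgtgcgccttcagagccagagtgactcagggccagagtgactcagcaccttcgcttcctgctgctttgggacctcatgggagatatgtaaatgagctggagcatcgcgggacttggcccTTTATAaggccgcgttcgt

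A promoter entry was matched by symbol for 92 of the 150 members and for 10687 of the 16272 genes with a mean value of at least 1. Member promoters had a median GC content of 56.4% and a median of 10 CpG pairs, against 60% and 15 over all genes, and 22.8% of them had 3 CpG pairs or fewer, against 9.27%. TATAAA was present on either strand in 13 of the 92, or 14.1%, against 6.37% of all promoters. These 13 were 9330159F19Rik, Aire, Akr1b8, Arhgdib, Ddx58, Mat2a, Nfatc2, Nqo1, Nr0b1, Reg2, Smyd1, Tex19.1 and Tgm3. The GC box GGGCGG was found in 41.3% of member promoters and 58.8% of all, and the CCAAT box CCAAT in 28.3% and 36.9%. The ETS motif CCGGAAG was found in 9.78% and 13.1%, the E-box CACGTG in 4.35% and 8.37%, the octamer ATGCAAAT in 4.35% and 1.35%, the nuclear receptor half-site AAGGTCA in 3.26% and 2.84%, the TCF/LEF motif CTTTGAT in 2.17% and 2.24%, and the cAMP response element TGACGTCA in 2.17% and 2.67%. All were searched on both strands, no motif contains another, though neighbouring matches can share end bases, and a match is a run of letters and not a bound site.

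Genes for ligands, receptors and signalling made up 14 members. Pdyn, the precursor of dynorphin opioid peptides, was listed at 0 at 0 h, peaked at 51.2 at 18 h and was at 1.3 at 96 h. Vegfc, a growth factor of lymphatic vessels, was at 239 to 344 at 18 to 36 h, against 76.5 and 24.3 at 0 and 96 h. Porcn encodes the acyltransferase that lipidates Wnt ligands for secretion, and it had 52.3, 18.2, 10.6 and 24.9 at 18, 24, 30 and 36 h and 1.7 and 0.9 at the ends, so its peak rests largely on the 18 h library. Chrna9, a subunit of the nicotinic acetylcholine receptor, stood at 113, 53.6, 54.7 and 57.4 in the middle hours and at 7.0 and 2.1 at the ends. Sstr5, a somatostatin receptor, and Htr1b, a serotonin receptor, reached 32.5 and 86.4 at 36 h from no more than 5.5 at either end. S1pr2, a receptor for sphingosine 1-phosphate, was the most abundant of the group at 838 to 1106 in the middle hours.

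Proteins best known from immune cells made up 11 members. Nlrc4, which encodes a core protein of an inflammasome that answers bacterial flagellin, had 19.1, 118 and 215 at 0, 6 and 12 h, 234, 223, 200 and 195 from 18 to 36 h and 36.3, 13.5 and 6.0 at 48, 72 and 96 h. It held a narrow range from 12 to 36 h and was several times lower at 48 h. Spn, the leukocyte sialoglycoprotein CD43, reached 29.7 to 70.0, against 2.6 and 4.7 at 0 and 96 h, and Myo1f, a myosin of leukocytes, 27.3 to 37.3 against 0 and 1.7. The costimulatory ligand genes Cd80 and Icosl were at 58.2 to 90.9 and 280.0 to 426 in the middle hours and at 12.2 and 3.4 and 61.7 and 119.6 at the ends. The RNA sensor gene Ddx58 had 209 to 279 against 59.1 and 86.4. The list of 12 interferon response genes held no member, although Oas2 and Ddx58 are themselves known as interferon-induced genes.

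Transport and metabolism made up 15 members. Nqo1, which encodes a quinone reductase, was the most abundant member of all, with 1084, 1746, 2647, 2715, 4459, 4358, 4717, 3299, 1866 and 851 from 0 to 96 h. Its highest values were at 24, 30 and 36 h, and it too was still high at 48 h. Mat2a, the S-adenosylmethionine synthetase gene, had 741 to 1382 in the middle hours and 250.4 and 281 at 0 and 96 h. Slc5a1, the sodium-glucose cotransporter SGLT1, had 133, 144, 55.3 and 75.1 at 18 to 36 h, against 9.6 and 2.6 at the ends. Slc39a14, a zinc and iron importer, had 15.7, 327 and 404 at 0, 6 and 12 h and 333, 288 and 164 at 48, 72 and 96 h, so that it was high from 6 h on and still well above its 0 h value at 96 h. Slc35d3, a member of the nucleotide-sugar transporter family, was listed at 0 at 0 h and reached 151.8 at 24 h. The hydroxysteroid dehydrogenase gene Hsd17b14 had 468 and 71.5 at the ends and 914 to 1198 in the middle.

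Stress and cell cycle genes made up 4 members and muscle and nerve proteins 8. Gadd45a and Plk3, both induced by DNA damage in other cells, were at 243 to 364 and 136 to 185 in the middle hours, and the cyclin D2 gene Ccnd2 had 124, 56.4, 22.9 and 50.9 with its peak in the 18 h library. Hspb1, a small heat shock protein, had 1341 to 1939 there and 590.4 and 321 at the ends, and the copies Hsp25-ps1 and Gm9817 followed it (r of 0.994 and 0.981 over 24 libraries), so reads may be shared among the 3. Casq1 and Atp1a4, genes of a muscle calcium store and of a sperm sodium pump, lie next to each other and moved together with r of 0.87. Smyd1, a histone methyltransferase of heart and skeletal muscle that is not counted among these 8, had 29.1, 54.5, 25.3 and 38.5 at 18 to 36 h.

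Of 29 gene lists of the transition and its pathways 5 held members, with 8 in all. These are 2.06% of the 389 list entries in the table, against 0.918% of all named genes. They were Nr0b1 among 21 naive genes, Dppa2 and Dppa4 among 9 core pluripotency genes, Ascl2 among 10 trophoblast genes, Rarg among 15 Hedgehog and retinoid genes, and Ccnd2, Plk3 and Gadd45a among 17 cell cycle genes. The 16 formative epiblast genes held none. Of these 16, only Grhl2 was highest at 18 to 36 h, and 13 were highest at 48, 72 or 96 h, among them Fgf5 and Otx2 at 48 h. Of the 21 naive genes 18 were highest at 0 h. Over all 16272 genes with a mean of at least 1, 23.8% were highest at 18 to 36 h.

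**Figure D2:**
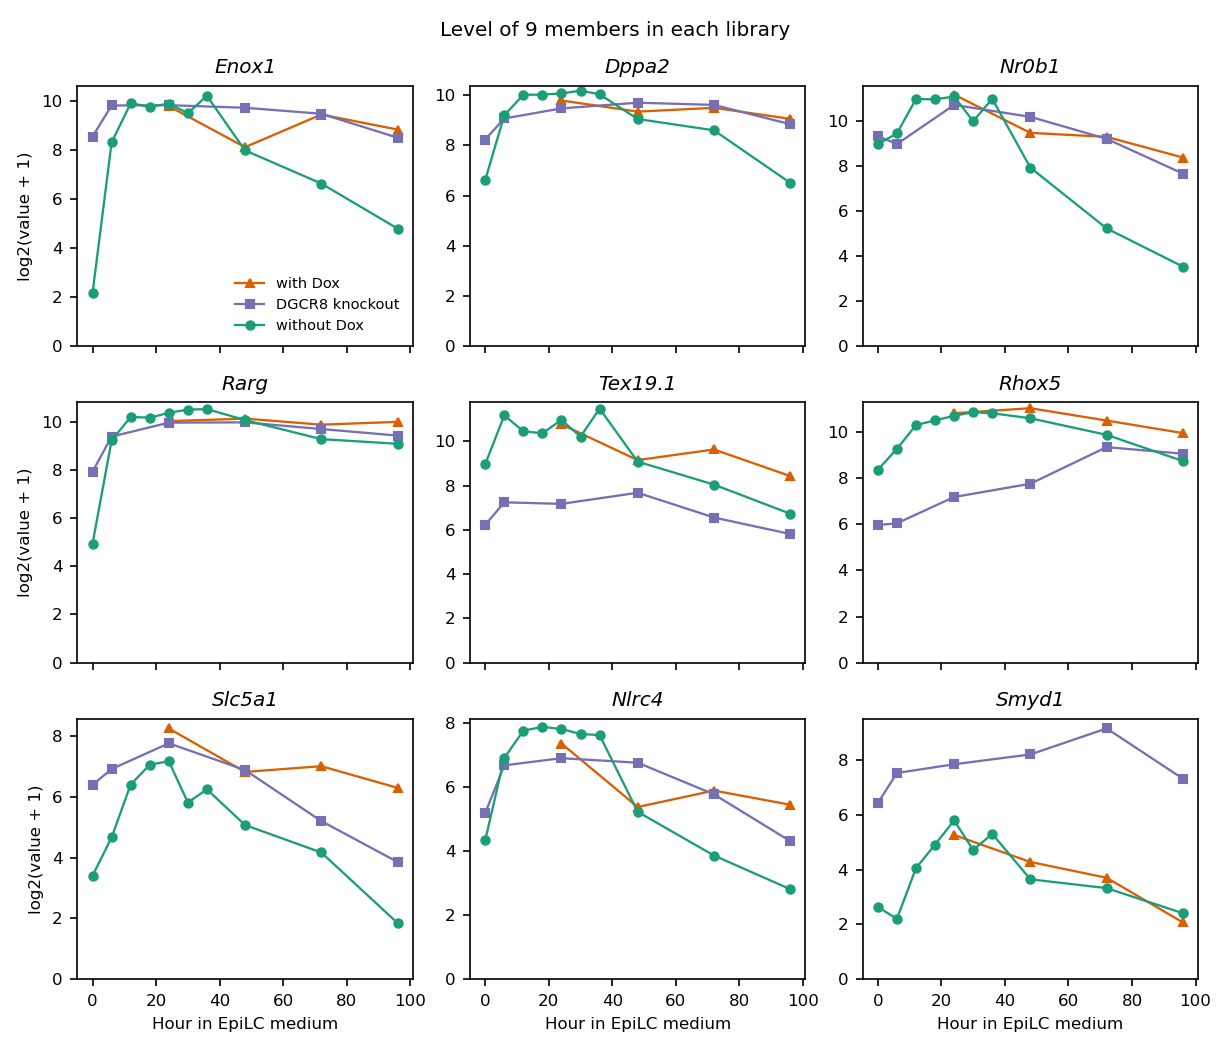
Level of 9 members in each library, as log2(value + 1), against hour in EpiLC medium; triangles are with Dox, squares the DGCR8 knockout and circles without Dox, with 1 library per point. Enox1, Dppa2, Nr0b1 and Nlrc4 are higher at 72 and 96 h with Dox and in the knockout than without Dox, Tex19.1 is lower in the knockout in all 6 libraries, and Smyd1 is higher there in all 6.

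The knockout course, which the choice of members did not use, shows whether the members were also highest between the ends there. Both the 24 h and the 48 h knockout library lay above both the 0 h and the 96 h one in 94 of the 150 members, against 12.1% of all 16272 genes. The knockout median was 34.2 at 0 h, 65.8 at 6 h, 92.6 at 24 h, 97.9 at 48 h, 88.2 at 72 h and 60.6 at 96 h. The crest was thus broad, and the lowest of the 6 medians was at 0 h. The highest of the 6 knockout libraries was at 24 h for 40 members (26.7%, against 8.47% of all genes), at 48 h for 41 (27.3%, against 13.5%), at 72 h for 32 (21.3%, against 12.2%), at 6 h for 28 (18.7%, against 18.3%), at 96 h for 8 (5.33%, against 27.1%) and at 0 h for 1 (0.667%, against 20.4%). At 24 h 26 members were at least 2-fold above both ends of the knockout course, against 1.25% of all genes, and the mean of 24 and 48 h was so in 23, against 0.799%.

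The bend of the knockout course was tested with limma as the quadratic coefficient in the square root of the hour, over 16106 genes. A total of 17 of the 147 members tested curved down with an adjusted p under 0.05, against 0.515% of all genes, and 0 members curved up, against 0.459%. At an unadjusted p under 0.05, 84 members curved down and 1 curved up, against 7.16% and 11% of all genes. The coefficient was negative in 135 of the 147, with a median of -0.038 log2 units per hour for members and 0.003 for all genes. The 17 included Slc5a1 (-0.103 ± 0.014 (SE), limma adjusted p = 0.0347), Nlrc4 (-0.096 ± 0.010 (SE), adjusted p = 0.022), Enox1 (-0.059 ± 0.008 (SE), adjusted p = 0.035) and Rarg (-0.054 ± 0.006 (SE), adjusted p = 0.0266). The most negative called member was Sned1, an extracellular matrix gene, with knockout values of 11.3, 227, 257, 266, 162 and 126 at 0, 6, 24, 48, 72 and 96 h. A downward bend also arises from a rise that levels off, so a call does not place the peak between the ends. The called member Slc35d3 had knockout values of 3.1, 22.9, 98.7, 134.6, 135.6 and 156.8 at the same hours, highest at 96 h. The most positive coefficient, that of the transferrin gene Trf (0.062 ± 0.016 (SE), limma adjusted p = 0.11), did not pass, with knockout values of 10.9, 6.2, 11, 14.0, 50.2 and 63.5. The calls depend on the moderation and on single libraries: 0 members were called down with all 6 libraries but no intensity trend, where 12 genes were called in all. Without the 24 h library 0 members were called, and likewise without the 48, 72 or 96 h library. Without the 0 h library 20 were called and without the 6 h library 51, where 2.57% and 6.33% of all genes were called in either direction.

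Some members kept their shape in the knockout at another level, and others did not. These values set the knockout beside the libraries that chose the members, so they are given without a test. Nlrc4 had 35.3, 101, 118, 107, 53.5 and 18.8 in the knockout at 0, 6, 24, 48, 72 and 96 h, against 19.1, 118, 223, 36.3, 13.5 and 6.0 without Dox. Both courses were highest at 24 h, where the knockout was lower, and the knockout was higher at 48, 72 and 96 h. Enox1 had 372, 895, 902, 839, 708 and 360.2 in the knockout, against 3.5, 314, 941, 251, 98.0 and 26.8 without Dox: the groups were close at 24 h, and the knockout was higher in the other 5 pairs. Tex19.1 stood at 73.8, 151, 144, 204, 93.5 and 55.4 in the knockout, against 498, 2316, 2012, 542, 264 and 106 without Dox, and was lower in all 6 pairs. Rhox5 had 61.6, 64.8, 144, 215, 647 and 532 in the knockout, against 328, 614, 1661, 1542, 937 and 426 without Dox, so that its knockout course was highest at 72 h. Smyd1 had 85.3, 183, 229, 294, 569 and 159 in the knockout, against 5.2, 3.6, 54.5, 11.5, 9.0 and 4.3 without Dox, and was higher in all 6 pairs.

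Over the 6 pairs of hours, with limma and hour as a block, 54 members were called higher in the knockout (18.1% of all genes) and 15 lower (24.3% of all genes); the libraries without Dox chose the members, so nothing is read from these counts. At least 2-fold differences were counted hour by hour. The knockout was higher for 80 members and lower for 6 at 96 h (10.6% and 6.76% of all genes), higher for 67 and lower for 7 at 72 h (8.66% and 10.2%), and higher for 51 and lower for 22 at 48 h (10.4% and 14.5%). At 24 h it was higher for 12 and lower for 57 (10.6% and 14.1%), at 6 h higher for 42 and lower for 27 (11% and 8.81%), and at 0 h higher for 56 and lower for 19 (9.05% and 13.1%). Members at least 2-fold lower outnumbered those higher at 24 h alone. The choice of members favoured high values at 24 h and low values at 0 and 96 h without Dox. These counts by hour are therefore a description, and nothing is read from their order. Ccnd2, cyclin D2, was higher in the knockout in all 6 pairs, with 22.2, 68.6, 172, 144, 132 and 196 in the knockout, against 2.6, 7.1, 56.4, 27.4, 40.5 and 11.5 without Dox. Gm14685, Pla2g1b (a secreted phospholipase gene) and Trim52 did not exceed 0.5, 1.4 and 1.3 in any knockout library, against 20 to 35.5, 35.5 to 66.5 and 22.7 to 87.6 at 18 to 36 h without Dox. The metalloreductase-family gene Steap1 had 0.6 to 46.7 in the knockout, against 45.2 to 198 without Dox.

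With Dox the members were close to the without-Dox level at 24 h and higher at 72 and 96 h. Their median was 116.8, 71.9, 93.0 and 62.8 with Dox at 24, 48, 72 and 96 h, against 124.5, 63.7, 41.2 and 21.7 without Dox. At 24 h 1 member was at least 2-fold higher with Dox and 2 were lower (4.48% and 1.85% of all genes). At 48 h 20 were higher and 6 lower (4.49% and 4.81%), at 72 h 82 were higher and 1 lower (7.25% and 5.25%), and at 96 h 101 were higher and 0 lower (8.14% and 6.42%). The 24 and 96 h libraries without Dox took part in the choice of members, a choice that makes low values at 96 h likely, so these counts are a description. The 72 h library without Dox could not hold a member's highest value. It also lies on the same falling course, between 48 h and the 96 h library that the choice kept low. The 72 h counts are thus a description too.

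**Figure D3:**
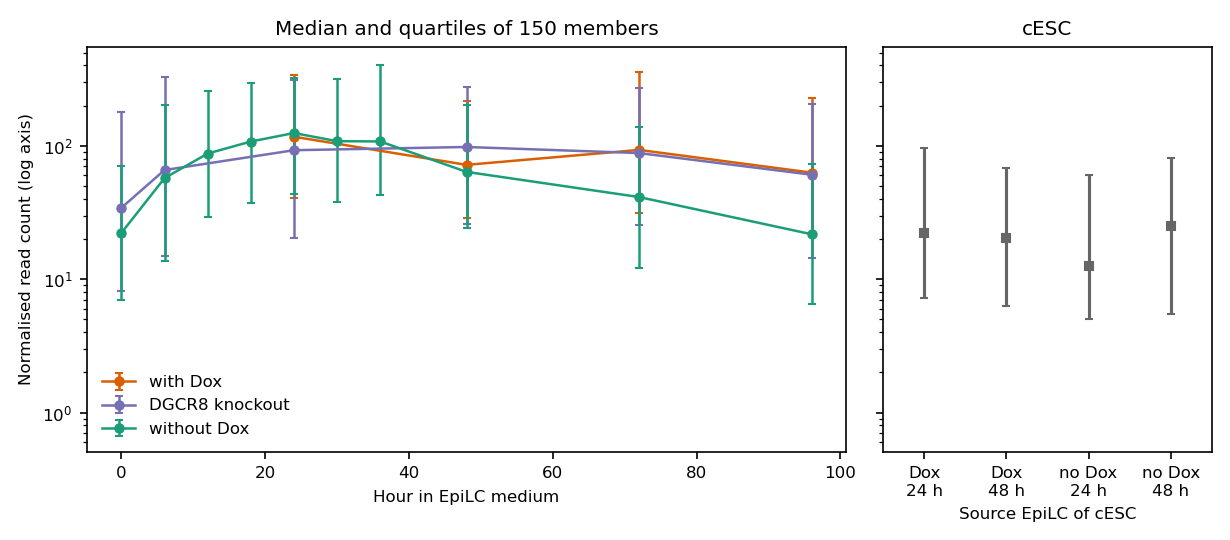
Median and quartiles (bars) over the 150 members of the normalised read count, on a log axis, in the with-Dox, DGCR8 knockout and without-Dox libraries by hour (left) and in the 4 cESC libraries (right). At 72 h the medians are 93.0 with Dox, 88.2 in the knockout and 41.2 without Dox, and the cESC medians run from 12.5 to 25.

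Nr0b1 had 2285, 704, 624 and 329.9 with Dox at 24, 48, 72 and 96 h, against 2156, 242, 36.5 and 10.6 without. The groups were alike at 24 h and far apart at 72 and 96 h. Slc5a1 had 305, 112, 128 and 77.8 with Dox, against 144, 32.7, 17.0 and 2.6 without, and was higher at all 4 hours. Cd80 had 144, 125, 106 and 75.1 with Dox, against 90.9, 40.7, 8.5 and 3.4 without, and Enox1 878, 275, 692 and 453, against 941, 251, 98.0 and 26.8. Vegfc had 463, 268, 277 and 185 with Dox, against 344, 128, 32.5 and 24.3 without, again with the larger gaps at the later hours. Rarg, by contrast in size, had 1035, 1112, 935 and 1013 with Dox, against 1316, 1066, 616 and 540.0 without, so that its with-Dox level hardly changed between 24 and 96 h. Higher with Dox at all 4 hours were 53 members (15.5% of all genes). Lower at all 4 hours were 5 members (14.5% of all genes), among them Slc35d3, A930004D18Rik, Pla2g1b and Gm33707. Of these, Pla2g1b had 21.5, 13.2, 11.2 and 6.8 with Dox, against 40.9, 44.2, 32.0 and 10.6 without.

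Within the with-Dox libraries alone, which chose no member, 98 of the 150 were highest at 24 h (65.3%, against 36.3% of all genes) and 31 at 72 h (20.7%, against 17.4%). The 24 h library was above the 96 h one for 123 members (82.0%, against 57.8%) and at least 2-fold above it for 66 (44.0%, against 9.30%). It was at least 2-fold above the 48 h library for 47 members (31.3%, against 8.83%), while the 72 h library was at least 2-fold above it for 13 (8.67%, against 9.10%). A slope over the 4 hours gave no call: with limma 0 members and 0 of 16101 genes had an adjusted p under 0.05 in either direction, while 59 members had a negative and 4 a positive slope at an unadjusted p under 0.05, against 9.52% and 8.14% of all genes. Without the 48 h library 74 members were called falling and 15 rising, where 23.4% of all genes were called in either direction. Without the 24 h library 11 were called falling and 12 rising, where 3.30% of all genes were called.

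By role, the at least 2-fold higher level with Dox at 96 h, counted above for 101 of 150 members and 8.14% of all genes, rests on a without-Dox library that took part in the choice. It was seen in 9 of 16 transcription and chromatin genes, 9 of 14 signalling genes, 7 of 11 immune genes, 10 of 15 transport and metabolism genes, 4 of 4 stress and cell cycle genes and 8 of 8 muscle and nerve genes.

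Over the 4 pairs, with limma and hour as a block, 4 members were called higher with Dox (1.78% of all genes) and 0 lower (1.05%). These were Slc5a1, Chrna9, the EGF-domain gene Egfl6 and Steap1, and nothing is read from this count because it includes the libraries of the choice. At an unadjusted p under 0.05, 78 members were higher and 5 lower, against 12.2% and 10.7% of all genes. Without the 24 h pair 39 members were called higher, and without the 48, 72 or 96 h pair 0 were. On the pairs of 48 and 72 h alone, an alternative added after the data had been seen, 22 were called higher and 1 lower. Shares of all genes are not given beside these alternative counts, and nothing about the members is read from them.

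The summed level of naive markers was also higher with Dox and in the knockout. The summed level of the 5 naive markers was 9969, 5732, 3568 and 2225 with Dox at 24, 48, 72 and 96 h, against 7377, 2068, 826 and 464 without. It was 32122, 19846, 13248, 5182, 2232 and 1485 in the knockout at 0, 6, 24, 48, 72 and 96 h, against 24611, 13057, 7377, 2068, 826 and 464 without Dox. Single markers did not all follow this sum. At 0 h Tfcp2l1 had 23066 in the knockout, against 14738 without Dox, and Tbx3 612.5, against 433.9, while Klf4, Esrrb and Zfp42 were lower. Zfp42 was also lower in the knockout at 6 and 24 h, Klf4 at 72 h and Tbx3 at 96 h. The 5 EpiLC markers summed to 949, 1381, 1907 and 1876 with Dox, against 1558, 2742, 3136 and 2855 without, so they were lower with Dox at all 4 hours. In the knockout they summed to 391, 483, 853, 2022, 2452 and 2983, against 260.0, 261, 1558, 2742, 3136 and 2855 without Dox, higher at 0, 6 and 96 h and lower at 24, 48 and 72 h. At 96 h Dnmt3b had 1406 in the knockout, against 936 without Dox, and Otx2 479, against 463, while Fgf5, Pou3f1 and Sox3 were lower. At 96 h the neural markers stood at 278 with Dox and 384 in the knockout, against 67.2 without Dox. Only 2 of the 4 neural markers had values, and the sums were mostly Sox1, with 276.0, 369.2 and 67.2. The primitive endoderm markers stood at 63.4 with Dox and 18.3 in the knockout, against 9.5 without Dox. In the knockout Gata4 had 12.9, against 4.3 without Dox, while Sox7 (2.6 and 2.6), Gata6 (1.0 and 0.9) and Pdgfra (1.8 and 1.7) were alike. None of the 5 naive markers was at 0 in these libraries, and the part of any of these lists in the higher late levels of the members was not tested.

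On return to 2i/LIF the members were low again. The comparison was made with the with-Dox EpiLC libraries at 24 and 48 h, which the choice did not use. The return to 2i/LIF and the end of Dox thus cannot be told apart in it. The choice took genes lower in 2i/LIF at 0 h than at 18 to 36 h, and with Dox the members were close to the without-Dox level at 24 h. Lower values in cESCs were therefore made likely by the choice, and the calls below are not independent of it. The 4 cESC libraries differ in source hour and Dox history, and the EpiLC libraries in hour. Each set was taken as 1 group without a block, so those differences are part of the spread behind the p-values. A total of 87 members were called lower in cESCs by limma with an adjusted p under 0.05 (58%, against 6.25% of the 16050 genes tested), and 0 were called higher (0%, against 2.54%). At an unadjusted p under 0.05, 128 were lower and 1 higher, against 17.9% and 7.83% of all genes. All 4 cESC libraries lay below both EpiLC libraries for 126 members, which held for 24.1% of all genes. The median log2 difference was -1.93 for members and -0.14 for all genes. Without the 24 h EpiLC library 33 members were called, and leaving out any other library gave 58 to 98. Shares of all genes are not given beside these counts, which show only how far the calls rest on single libraries. The naive markers summed to 19273, 11562, 8029 and 16010.0 in cESCs from with-Dox EpiLCs of 24 and 48 h and from without-Dox EpiLCs of 24 and 48 h, against 9969 and 5732 in the with-Dox EpiLCs, and the trophoblast markers to 55.2, 209, 309 and 89.9, mostly Krt7, against 70.0 and 31.6. Their part in the lower levels of the members was not tested.

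Enox1 had 16.7, 14.4, 20.8 and 7.3 in cESCs from with-Dox EpiLCs of 24 and 48 h and from without-Dox EpiLCs of 24 and 48 h, against 878 and 275 in with-Dox EpiLCs at 24 and 48 h. This is a log2 difference of -5.05 ± 0.51 (SE) (limma adjusted p = 0.000944). The deepest fall was that of Slc35d3, with 1.8, 0.9, 0 and 0.9 in cESCs, against 79.4 and 75.4 in EpiLCs, a log2 difference of -5.46 ± 0.52 (SE) (limma adjusted p = 0.000688). Slc39a14 had 11.4, 6.3, 16.7 and 12.7 in cESCs, against 351 and 460.5 in EpiLCs (-5.05 ± 0.38 (SE), limma adjusted p = 0.000266). For these 3 genes no cESC library came near an EpiLC one. Dppa2 had 120.2, 119, 60 and 109 in cESCs, against 883 and 649 in EpiLCs (-2.93 ± 0.30 (SE), limma adjusted p = 0.00103), and Rarg 36.8, 78.4, 108 and 42.7, against 1035 and 1112 (-4.13 ± 0.40 (SE), limma adjusted p = 0.000726). Pdyn was listed at 0 in all 4 cESC libraries and had 17.8 and 21.1 in the EpiLCs.

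Some members were not called lower in cESCs. Nr0b1 had 615, 316, 170.0 and 656 in cESCs, against 2285 and 704 in EpiLCs, and its log2 difference of -1.72 ± 0.59 (SE) did not pass (limma adjusted p = 0.106). The nucleoside transporter gene Slc28a1 had 259, 301, 284 and 258 in cESCs, against 368 and 311 in EpiLCs (-0.30 ± 0.17 (SE), limma adjusted p = 0.304). Gm33707 was the only member with a positive difference, with 31.6, 36.0, 25.8 and 25.5 in cESCs, against 18.7 and 9.6 in EpiLCs (1.07 ± 0.36 (SE), limma adjusted p = 0.102). Set beside 2i/LIF cells at 0 h, the mean log2 level of the 4 cESC libraries was within 1 unit of it for 123 members, over 1 unit above it for 13 and over 1 unit below it for 14. At least 2-fold above 0 h were 15 members in cESCs from with-Dox EpiLCs of 24 h (2.43% of all genes), 17 in those of 48 h (4.96%), and 15 and 18 in cESCs from without-Dox EpiLCs of 24 and 48 h (5.52% and 3.01%). Each cESC library was also set beside its own source: 128 and 104 members were at least 2-fold lower in cESCs from with-Dox EpiLCs of 24 and 48 h (13.2% of all genes in both), and 140 and 86 in those from without-Dox EpiLCs (22.9% and 14.2%), the sources of the last pair being among the libraries that chose the members. By role, 13 of 16 transcription and chromatin genes, 7 of 14 signalling genes, 8 of 11 immune genes, 9 of 15 transport and metabolism genes, 4 of 4 stress and cell cycle genes and 4 of 8 muscle and nerve genes were called lower in cESCs. Of the 16 formative epiblast genes 12 were called lower in the same fit, with Pou3f1 at -5.11 ± 0.36 (SE) and Otx2 at -3.06 ± 0.30 (SE), and of the 21 naive genes 8 were called higher and 0 lower.

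**Figure D4:**
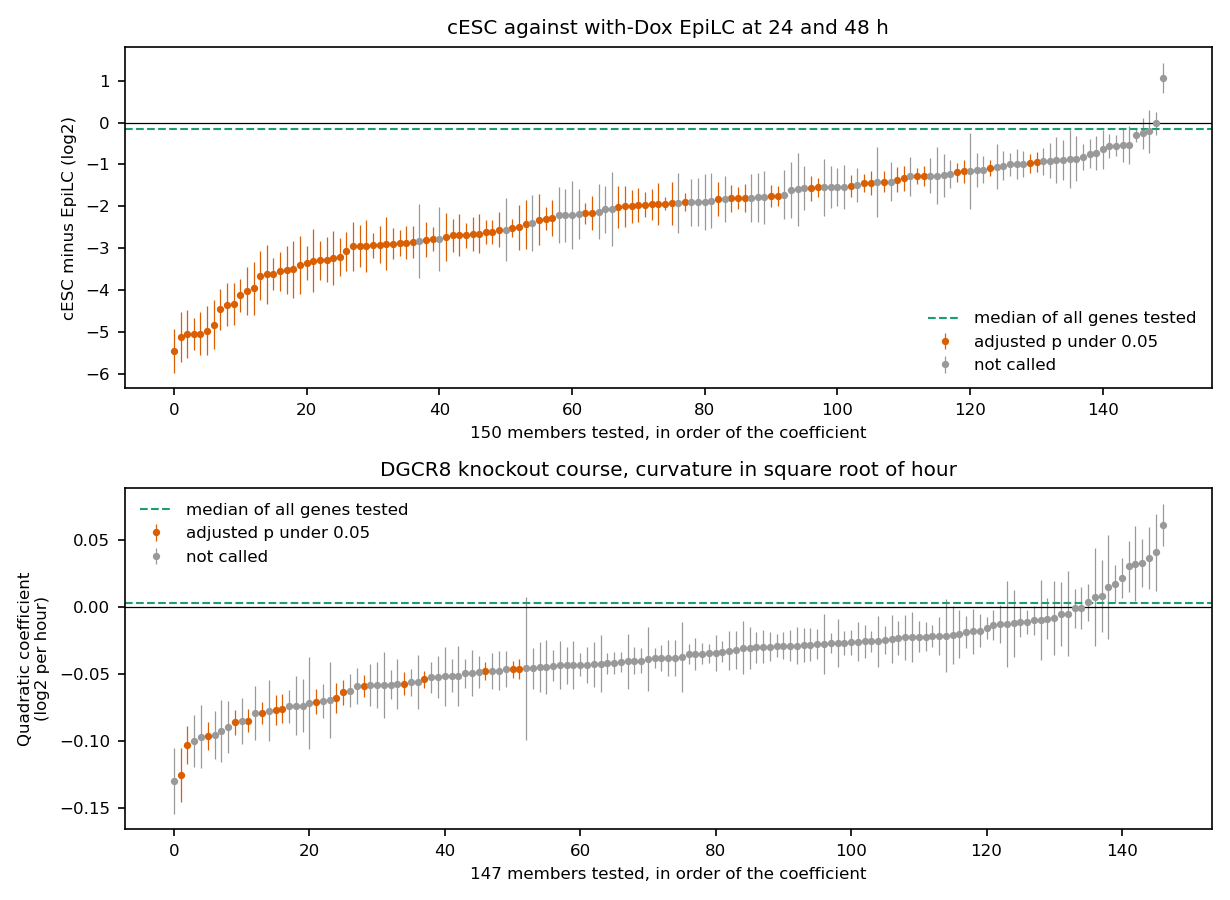
Coefficient and SE of each member, in order of size, in the fit of cESCs against with-Dox EpiLCs (top, log2 difference, 150 members) and in the fit of curvature of the knockout course (bottom, log2 per hour, 147 members); orange points have a limma adjusted p under 0.05 and the dashed line is the median of all genes tested. All members but Gm33707 lie below 0 in the top panel, 87 of them called, and 135 lie below 0 in the bottom panel, 17 of them called.

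In embryoid bodies, another route out of pluripotency with its own table of 16753 genes and its own normalisation, 144 of the 150 members were listed. Their median value was 65.5 in serum/LIF at day 0, 86.2 at day 1, 75.6 at day 2, 39.4 at day 4, 21.8 at day 8, 29.2 at day 10 and 33.9 at day 13. Day 1 was the highest of the 7 libraries for 69 members (47.9%, against 13.9% of all genes) and day 2 for 20 (13.9%, against 7.42%). At least 2-fold above day 0 were 48 members at day 1 (33.3%, against 5.59%) and 45 at day 2 (31.2%, against 7.60%). The mean of days 1 and 2 was at least 2-fold above both day 0 and day 13 for 33 members (22.9%, against 2.47%).

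Dppa2 had 408, 1506, 1163, 165, 67.1, 31.1 and 17.8 in EBs on days 0, 1, 2, 4, 8, 10 and 13, and Dppa4 had 511, 884, 833, 314, 84.1, 40.0 and 18.3. Both were highest on days 1 and 2 and lowest on day 13. Nr0b1 had 604, 1713, 599 and 19.4 on days 0, 1, 2 and 4, Nqo1 276, 1402, 891 and 263 and Tex19.1 312, 1139.7, 1024 and 266, each with its highest value of all 7 days on day 1. Enox1 had 240.2, 625, 332, 42.5, 59.4, 95.6 and 229, with a higher value again on day 13. Other members did not share this course: Rhox5 had 44.8, 53.9, 53.8, 60.6, 346, 196 and 219 and Ccnd2 139.8, 152, 58.4, 241, 2615, 2697 and 1978, both highest on day 8 or 10, and Slc5a1 was highest on day 0 with 9.6, 3.7, 2.4 and 7.5 on days 0, 1, 2 and 4.

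A quadratic bend in the square root of the day gave 1 member called with a limma adjusted p under 0.05, Dppa4 (-0.71 ± 0.10 (SE), adjusted p = 0.0415), against 0.287% of the 16753 genes that curved down, and 0 members curved up, against 0.442%. At an unadjusted p under 0.05, 26 members curved down and 9 up, against 7.11% and 11.1% of all genes. Without the day 0 library this balance turned, with 6 members down and 39 up at an unadjusted p under 0.05, and 0 down and 1 up called. Shares of all genes are not given for that fit, so this turn is not read as a trait of the members. The call of Dppa4 was lost without the day 0, 2, 8, 10 or 13 library, and edgeR on whole reads recovered from the values, added after the data had been seen, called 3 members down and 1 up. The share of all genes that edgeR called is not given, so nothing is read from its counts. In serum/LIF 14 members were at least 2-fold higher with Dox than without (9.72%, against 1.14% of all genes) and 10 at least 2-fold lower (6.94%, against 8.07%), from 1 library each and with no test.

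A subset of 15 members had a course with 2 crests. It was defined, after the values had been seen, by a 6 h value at least 0.5 log2 units above the mean of 12 and 18 h, and it holds Tex19.1, Htr1b, Reg2, Focad, Pign, Grk1, Clca3b and 8 predicted or clone-named transcripts. Gm43540 had 324, 1202, 565, 623, 1062, 1139, 1327, 597, 833 and 385 from 0 to 96 h without Dox, and Focad, which encodes focadhesin, had 47.0, 182, 86.2, 61.0, 194, 167, 179, 71.7, 131 and 50.2. In both, 6 h was high, 12 and 18 h were lower, and 24 to 36 h were high again. With Dox at 24, 48, 72 and 96 h Gm43540 had 1304, 759.6, 2659.6 and 2049 and Focad 222, 54.4, 373 and 309.5, so that 72 and 96 h exceeded 24 h. In the knockout Gm43540 had 1373, 3202, 1881, 1880.4, 1791 and 1407 and Focad 219, 692, 361, 221, 301 and 241 at 0, 6, 24, 48, 72 and 96 h, with 6 h the highest.

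The same order held in most of the subset. The with-Dox library at 72 h was above that at 24 h in 12 of the 15, against 25 of the other 135 members, with median log2 differences of 0.98 and -0.43. The knockout was highest at 6 h in 14 of the 15, against 14 of the other 135. Tex19.1 went the other way in both, with 1747 and 796 with Dox at 24 and 72 h. Its knockout values were 151 at 6 h and 204 at 48 h, the highest. Htr1b and Clca3b were also lower at 72 h than at 24 h with Dox. Log2 values over the 24 libraries had a median pairwise r of 0.86 within the 15 and of 0.59 among the other 135, as a description over libraries that share lines and depth; the 6, 12 and 18 h libraries without Dox were used to define the subset. Several of these names differ from each other by a near-constant ratio, such as AC182748.2 and Gm17132 (ratio 0.28, between 0.24 and 0.32, r of 0.997), so that copies of a shared sequence may have been counted under more than 1 name.

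**Figure D5:**
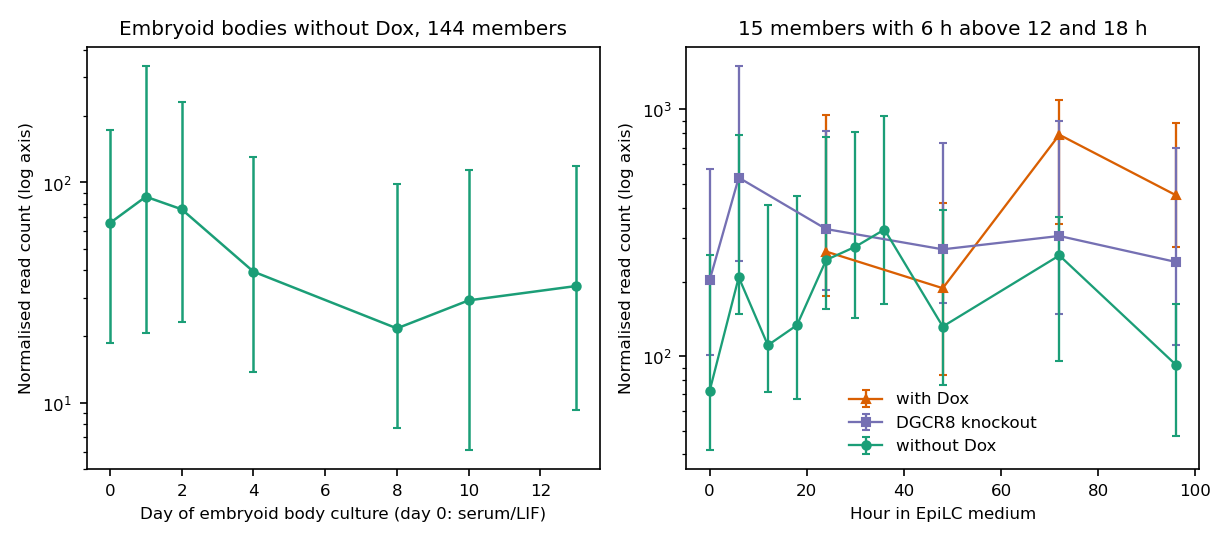
Median and quartiles (bars) of the normalised read count, on log axes, of the 144 members listed in embryoid bodies by day without Dox (left), and of the 15 members with 6 h above 12 and 18 h in the with-Dox, DGCR8 knockout and without-Dox libraries by hour (right). The EB median is highest on day 1 at 86.2, and the median of the subset is highest at 6 h in the knockout and at 72 h with Dox.

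Position and annotation were the last features compared. RefSeq matched 134 of the members by symbol, of which 123 were annotated as protein coding, 10 as pseudogenes and 1 as a long non-coding RNA. The X chromosome held 10 of them (7.5%, against 4.3% of all matched genes). Members lay within 100000 bases of each other in 9 pairs, among them Dppa4 with Dppa2, Casq1 with Atp1a4, Slc35d3 with Map3k5, Soga3 with 9330159F19Rik, Aire with Icosl, Angptl4 with Gm7029, Gm9788 with Gm340, and Msantd2 with Vsig2. For the pairs named, r over the 24 libraries ran from 0.52 (Aire and Icosl) to 0.87, which was the value of both Dppa4 with Dppa2 and Casq1 with Atp1a4. Soga3 and 9330159F19Rik overlap in the annotation, so reads of the pair may not be separable.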

How the data were processed

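PolyA RNA was sequenced from 32 libraries, used here in an EpiLC table and an embryoid body table; small RNA tables were not used. The deposited values are a normalised signal per gene: gene reads that the authors divided by a size factor of the library and rounded, as the values themselves show. Per the submitters' processing notes reads were aligned with Bowtie, and GRCm38 and mm9 are both named without roles; the version, counter, annotation and normalisation are not given in the sources used here. Libraries were made with a stranded kit, per the labels' protocols. In 23 of the 32 libraries at least 95% of values were whole multiples of 1 read within 0.1 reads. Thus edgeR 4.0.16 could be run on recovered reads as an added alternative for cESCs and embryoid bodies. It called 89 members lower and 0 higher in cESCs. The share of all genes that it called is not given, so nothing about the members is read from these counts.

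Library depth, recovered from the values, was 5.80 to 56.02 M reads. A line of the EpiLC table without a gene name was left out, and 20 names that a spreadsheet had turned into dates were kept but are not named. Genes with a mean value of at least 1 were tested on log2(value + 1) with limma 3.58.1 (R 4.3.3, moderated with an intensity trend), and p-values were adjusted by Benjamini-Hochberg over all genes of a fit at 0.05. The fits were tested on simulated data. Every condition has 1 library, so courses were fitted as curves, and hours served as blocks in the Dox and knockout comparisons. The cESC fit had neither. It took libraries of differing hour, and among cESCs of differing Dox history, as 1 group on each side. Those differences are part of its spread. In every fit p-values measure only the spread around the fit. Tables and figures were made with Python 3.11.15, pandas 2.3.3, numpy 2.4.6 and matplotlib 3.10.9.

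The members and gene lists were chosen with earlier results of these data known. Genes named are the 20 members of largest excess, those in a list, the 5 of most negative and the 5 of most positive coefficient in each fit, those at the edge of the rule and the 3 of highest level, from which the text takes those with known products; other members are named for their role after their values were seen. Alternatives were another pseudocount, filters on low values, median-ratio scaling, no intensity trend, no hour block and leaving out each library. Results for 1 member are not reported here.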

Additional observations from a re-analysis of the deposited data

How the results depend on the processing

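None of the 2197 recomputed values of genes called with all libraries changed sign, but the balance of counts did: without the day 0 library 6 members curved down and 39 up in embryoid bodies at an unadjusted p under 0.05, against 26 and 9 with it, and without the 24 h library 12 members were called rising and 11 falling with Dox. The choice of members shared 142 of 150 with a pseudocount of 5 and 142 after median-ratio scaling, and 134, 134, 133 and 127 without the 18, 24, 30 and 36 h library. Leaving out 1 library or pair at a time gave 0 to 51 members curved down and 0 to 0 curved up in the knockout, 0 to 74 falling and 0 to 15 rising with Dox, 0 to 8 curved down and 0 to 2 curved up in embryoid bodies, 33 to 98 lower and 0 to 0 higher in cESCs, 0 to 39 higher and 0 to 0 lower with Dox, and 43 to 64 higher and 10 to 19 lower in the knockout. Without the intensity trend 0 members curved down in the knockout and 0 were called higher with Dox. In embryoid bodies 3 members curved down and 1 up with a pseudocount of 5, 2 and 1 with median-ratio scaling, and 3 and 1 with edgeR on recovered reads. Without the hour block 0 members were called higher with Dox, and 28 were higher and 8 lower in the knockout. Among alternatives chosen after seeing the data, the 48 and 72 h pairs alone gave 22 higher and 1 lower with Dox, and the 6, 48 and 72 h pairs alone gave 8 lower in the knockout. The cause of these moves was not tested. Shares of all genes are not set beside these counts, which show only how far the calls depend on the settings. Of the single-gene values recomputed, 1766 stayed on their side of the threshold and 431 lost their call. By replicate number no paired analysis was possible because each condition has 1 library; hours were paired as blocks in the Dox and knockout comparisons. With 1 library per condition, the spread between replicates of a condition is unknown.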
